A study of Mus musculus with 16 samples.

Results

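The voltage-gated sodium channel genes were followed across the 4 groups of the series. Of 9 listed genes, 8 had a probeset that the platform table pairs with a single gene, and these are the pore-forming alpha subunits Scn1a, Scn3a, Scn7a, Scn8a and Scn9a and the beta subunits Scn2b, Scn3b and Scn4b. Scn4a, the alpha subunit of skeletal muscle, had no probeset in the table and was not analysed here. The 8 genes are among 19937 genes for which the probeset with the highest mean over the arrays was used. Scn9a had 2 probesets of a single gene and the other genes 1 each, and probesets shared with another gene (1 for Scn1a, 3 for Scn3a, 2 for Scn9a) were left out. In GRCm38.p6, Scn1a, Scn3a, Scn7a and Scn9a lie on chromosome 2, Scn8a on chromosome 15 and the 3 beta subunit genes on chromosome 9.

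RNA of the organ of Corti (OC) at P5 came from 5 Tg1MDW/1MDW (Tg/Tg) and 5 WT samples, and RNA of the cochlea without the vestibular labyrinth at P18 came from 3 Tg/Tg and 3 WT samples, each on a MoGene 1.0 array. Tg/Tg mice are homozygous for the transgene of 1 founder line on the FVB/NCrl background, in which a human GFAP core promoter drives Mir183, Mir96 and Mir182, and WT mice lack it. The construct was meant to drive the cluster in supporting cells of the OC, and the promoter is also active in other glia. The samples are labelled as biological replicates, but how many animals gave the RNA of each is not stated.

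Probesets of Mir96, Mir182, Mir183 and Prm1, an element of the construct, served as a check of the sample names, and in each age every Tg/Tg array lay above every WT array for each of these probesets. Averaged over Kdm5d, Uty and Eif2s3y, which lie on the Y chromosome, the log2 signal was above 8 on 1 Tg/Tg and 4 WT arrays at P5 and below 5 on the other 4 Tg/Tg arrays and the other 1 WT array. At P18 it was 7.65 to 7.66 in Tg/Tg and 7.22 to 7.34 in WT. Arrays of an age correlated with each other at 0.973 to 0.992 at P5 and 0.990 to 0.995 at P18 (Pearson's r over all probesets).

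Voltage-gated sodium channels open on depolarisation and carry the inward current of the action potential. An alpha subunit forms the pore, and beta subunits, single-pass membrane proteins with an immunoglobulin-like domain, bind it and change its gating and its placement. In the cochlea these channels fire the spiral ganglion neurons, at the heminode beside the hair cells and at the nodes of Ranvier of their myelinated fibres, and immature hair cells also carry a sodium current. In developing neurons the set of channel genes in use changes, with Scn3a typical of immature neurons and Scn8a of mature nodes.

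Scn2b and Scn4b lie next to each other on chromosome 9, on the same strand and 8553 bases apart, and their signals differed in opposite directions between the ages (described further on). Their promoter windows are shown with that of Scn7a, the gene with the largest difference between the genotypes, so that the starts of neighbours with opposite patterns can be read side by side. Each window runs from 250 bases before to 50 bases after the start and comes from RefSeq (GRCm38.p6). Scn4b is at chr9:45138374-45138673 (+), Scn2b at chr9:45117626-45117925 (+) and Scn7a at chr2:66784861-66785160 (-). Capitals mark the E-box letters CANNTG and the GC-box letters GGGCGG on either strand.
Scn4b: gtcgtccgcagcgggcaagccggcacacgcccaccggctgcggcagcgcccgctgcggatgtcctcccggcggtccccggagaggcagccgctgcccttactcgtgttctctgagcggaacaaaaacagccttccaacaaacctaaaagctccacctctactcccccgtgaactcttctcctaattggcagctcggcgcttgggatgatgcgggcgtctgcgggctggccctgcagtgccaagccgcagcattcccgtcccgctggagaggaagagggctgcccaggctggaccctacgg
Scn2b: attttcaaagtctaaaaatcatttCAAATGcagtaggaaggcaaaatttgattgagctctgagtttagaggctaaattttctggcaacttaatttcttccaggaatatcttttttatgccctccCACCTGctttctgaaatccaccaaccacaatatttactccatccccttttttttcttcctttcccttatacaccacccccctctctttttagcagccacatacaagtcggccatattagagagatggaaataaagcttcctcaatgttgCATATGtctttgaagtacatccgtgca
Scn7a: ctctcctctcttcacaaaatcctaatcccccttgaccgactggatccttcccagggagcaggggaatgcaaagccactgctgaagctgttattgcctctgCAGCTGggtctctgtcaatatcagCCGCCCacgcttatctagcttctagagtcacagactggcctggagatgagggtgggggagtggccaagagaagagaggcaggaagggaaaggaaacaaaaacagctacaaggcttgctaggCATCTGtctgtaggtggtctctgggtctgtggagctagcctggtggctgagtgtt

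The Scn4b window held neither motif and was 66.3% G and C, the Scn2b window held 3 E-box matches and no GC-box match and was 38.3% G and C, and the Scn7a window held 2 E-box matches and 1 GC-box match at 54.0% G and C. Over 32851 windows of the same length, 72.3% held CANNTG and 35.7% held GGGCGG, and G and C made up 45.7% to 61.7% between the quartiles. RefSeq windows were at hand for 7 of the 9 listed genes, with 8 windows in all, since Scn8a has 2. Over these 8 windows, 5 held an E-box match and only that of Scn7a a GC-box match. The letters CAGCACC and GGACAG, parts of the RE1 element that the neuronal repressor REST binds, were in 7.14% and 22.2% of all windows, and of these 8 windows only the second of Scn8a held GGACAG and none held CAGCACC. A match of letters is no evidence of binding.

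**Figure D1:**
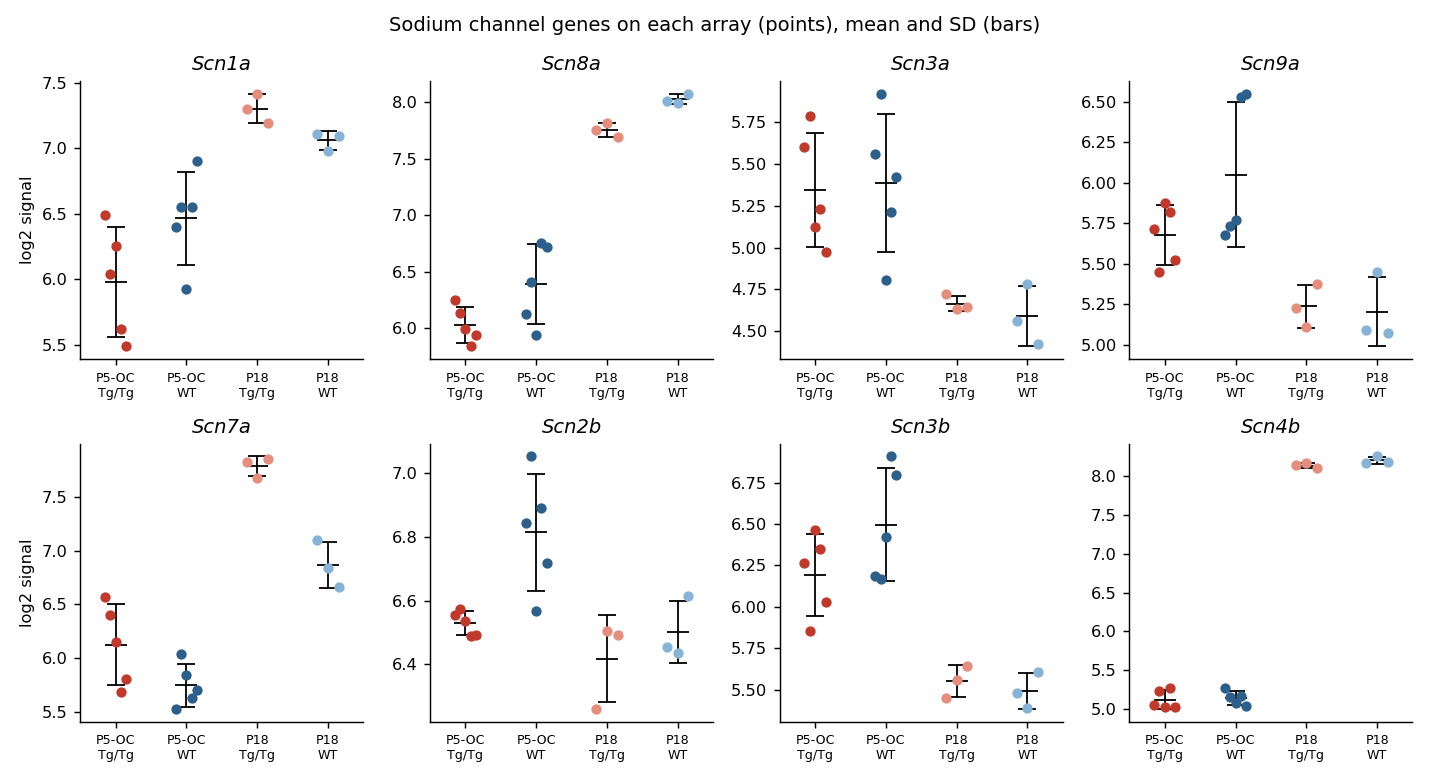
Log2 signal (y axis) of 8 sodium channel genes on each of 16 arrays, 1 panel per gene, with the groups P5-OC Tg/Tg, P5-OC WT, P18 cochlea Tg/Tg and P18 cochlea WT along the x axis. Points are arrays, the middle bar is the mean and the whiskers are the SD (n = 5 at P5, n = 3 at P18). The scale differs between panels, and Scn4b moved the most between the ages, with 8.17 to 8.26 in P18 WT and 5.04 to 5.27 in P5 WT.

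In WT, all 8 genes differed between the P18 cochlea and the P5-OC, 4 higher at P18 (Scn4b, Scn8a, Scn7a and Scn1a) and 4 lower (Scn3b, Scn9a, Scn3a and Scn2b), in a fit of all arrays with limma at an adjusted p under 0.05. At this threshold 50.0% of all 34760 probesets were called, 19.8% higher and 30.2% lower, so a call by itself sets a gene little apart from the array. In 7 of 8 genes the P18 and P5 WT arrays did not overlap, against 49.2% of all probesets, and Scn2b was the exception. The age comparison is also one of tissue, since the P5 samples are dissected OC and the P18 samples whole cochlea, and age and tissue cannot be told apart.

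Scn4b, the beta subunit linked to its alpha subunit by a disulphide bond and known for the resurgent current of fast-firing neurons, had the largest difference. Its log2 signals were 8.17, 8.26 and 8.19 in P18 WT, against 5.27, 5.15, 5.08, 5.16 and 5.04 in P5 WT. The P18 arrays lay far above all P5 arrays, and the difference was 3.07 ± 0.08 on the log2 scale (standard error), an 8.37-fold higher signal at P18 (limma, adjusted p = 1e-13). The P5 signals were close to the lower quartile of their arrays, which was 4.82 to 5.05 at P5. Scn4b also stood 8.15, 8.17 and 8.10 in P18 Tg/Tg and 5.05, 5.23, 5.02, 5.27 and 5.02 in P5 Tg/Tg, so the step was also present in Tg/Tg.

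Scn8a, the main alpha subunit of mature nodes of Ranvier, was also higher at P18. It had 8.01, 8.0 and 8.07 in P18 WT, against 6.13, 6.40, 5.94, 6.75 and 6.71 in P5 WT. The groups did not overlap, and the difference was 1.64 ± 0.16 (3.11-fold, limma, adjusted p = 2.9e-07). Scn7a, an atypical alpha subunit that senses sodium rather than firing action potentials and is found in glia, Schwann cells among them, had 7.10, 6.84 and 6.66 in P18 WT, against 5.52, 6.03, 5.84, 5.62 and 5.70 in P5 WT. All P18 arrays were higher, by 1.12 ± 0.18 (2.18-fold, limma, adjusted p = 7.2e-05).

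Scn1a, an alpha subunit of central and peripheral neurons, showed the smallest of the 4 higher values. It had 7.11, 6.98 and 7.09 in P18 WT, against 6.40, 6.55, 5.92, 6.55 and 6.90 in P5 WT. The groups were narrowly apart and the difference was 0.59 ± 0.22 (1.51-fold, limma, adjusted p = 0.031). This call did not hold when P18 WT replicate 1, 2 or 3 or P5 WT replicate 1 or 3 was left out (adjusted p = 0.087, 0.057, 0.082, 0.052 and 0.07).

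The 4 genes that were lower at P18 hold the alpha subunit of immature neurons. Scn3a had 4.56, 4.78 and 4.42 in P18 WT, against 5.56, 5.92, 4.81, 5.22 and 5.42 in P5 WT. P5 replicate 3 came close to the P18 arrays, the groups were still apart, and the difference was -0.80 ± 0.21 (limma, adjusted p = 0.0053). Replicates 1 and 2 were the highest in P5 WT, as they were in P5 Tg/Tg (values at the end). The P18 signals lay at about the lower quartile of their arrays (4.54 to 4.61). When quantile normalization was applied again, the Scn3a difference was -0.49 and no longer called (limma, adjusted p = 0.071).

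Scn9a, the alpha subunit best known from peripheral sensory neurons, had 5.09, 5.45 and 5.07 in P18 WT, against 5.68, 5.73, 5.77, 6.53 and 6.55 in P5 WT. The lower P18 arrays were apart from the P5 arrays by a difference of -0.85 ± 0.20 (limma, adjusted p = 0.0021). Over the alternatives that kept all arrays the difference was -1.02 to -0.55, with an adjusted p of at most 0.042 (limma). The second probeset of Scn9a gave -0.90 ± 0.19 (limma, adjusted p = 0.00072), so the 2 probesets gave the same direction. At 3.63 to 4.28 in P18 WT, this second probeset lay below the lower quartile of its arrays (4.57 to 4.61), which limits its weight.

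Scn3b, a beta subunit that binds its alpha subunit without a covalent bond, had 5.48, 5.39 and 5.61 in P18 WT, against 6.19, 6.17, 6.42, 6.91 and 6.80 in P5 WT. All P18 arrays were lower, with a difference of -1.0 ± 0.17 (2.01-fold lower, limma, adjusted p = 0.00013). Scn2b, like Scn4b a beta subunit with a disulphide link to its alpha subunit, had 6.46, 6.43 and 6.62 in P18 WT, against 6.84, 7.05, 6.57, 6.89 and 6.72 in P5 WT. The groups overlapped at P5 replicate 3, and the difference was -0.31 ± 0.10 (limma, adjusted p = 0.014). The Scn2b call did not hold after repeated quantile normalization (-0.14, adjusted p = 0.24) or without P18 WT replicate 1 or 2 (adjusted p = 0.056 and 0.064).

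Repeated quantile normalization moved the median of all probesets in this comparison to 0.09, against -0.06 as deposited, and the share of higher values among all called probesets to 56.0%, against 39.6%. Under it the 4 higher genes remained called, and of the 4 lower ones Scn9a and Scn3b did. Ordered by mean signal, Scn1a and Scn7a were highest in P18 Tg/Tg, then P18 WT. Scn8a and Scn4b were highest in P18 WT, then P18 Tg/Tg. In these 4 genes the arrays of both P18 groups were apart from each other and from the P5 groups, and both P5 groups overlapped. For Scn3a, Scn9a and Scn3b the P5 groups came first and overlapped, as the P18 groups below them did, and for Scn2b each group overlapped the next.

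**Figure D2:**
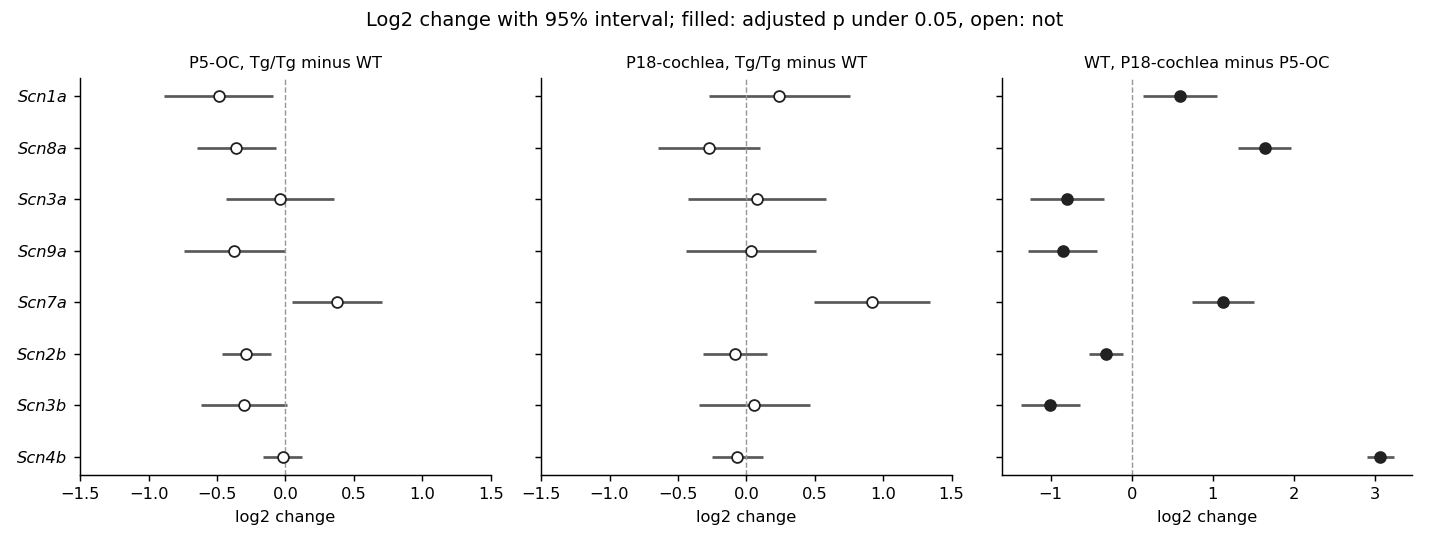
Log2 change (x axis) with its 95% interval from limma for 8 sodium channel genes (rows), for Tg/Tg minus WT at P5, Tg/Tg minus WT at P18 and P18 minus P5 in WT. Filled points passed an adjusted p of 0.05 and open points did not. All 8 points are filled for the ages and none for either genotype comparison, where Scn7a at P18 lies farthest from 0, at 0.92.

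Cell type markers also differed between the ages in WT, where 19.8% of all probesets were called higher and 30.2% lower at P18. Of 16 neuronal markers 9 were higher and 4 lower at P18, and their summed signal (log2) was 13.80 to 13.87 in P18 WT and 12.97 to 13.51 in P5 WT. All 6 oligodendrocyte markers were higher, at a summed 11.15 to 11.18 in P18 WT and 9.45 to 10.27 in P5 WT, and 6 of 8 hair cell markers were lower and none higher, at 11.41 to 11.48 in P18 WT and 11.99 to 12.17 in P5 WT. Of 12 Schwann cell markers measured, 2 were higher and 8 lower, at 13.50 to 13.58 in P18 WT and 14.04 to 14.21 in P5 WT. Among 12 markers of cerebellar and hindbrain neurons 6 were higher, with Gabra6 (1.55) and Neurod1 (1.81) first by adjusted p, and 1 was lower. Their summed signal was 11.61 to 11.67 in P18 WT and 11.73 to 12.04 in P5 WT. Among 4 astrocyte markers 2 were higher, Gfap (3.06) first, and 1 lower, at 10.07 to 10.20 in P18 WT and 9.94 to 10.31 in P5 WT. Supporting cell markers (2 of 8 higher, 5 lower) and skeletal muscle markers (9 of 18 higher, 2 lower) differed too. No marker is listed at 0, and the part of these cells in the channel differences was not tested. In such bulk samples fewer cells of a type and less RNA per cell cannot be told apart.

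Of 22 measured partner genes, whose proteins anchor, modify or surround sodium channels, 6 were higher and 12 lower at P18 in WT. Over all probesets 19.8% were higher and 30.2% lower. The median log2 change of the partner genes was -0.33, against -0.06 over all probesets. The smallest adjusted p were those of Nedd4l (-1.17 ± 0.07, limma, adjusted p = 2e-09) and Nedd4 (-0.70 ± 0.07, limma, adjusted p = 4.8e-07), ubiquitin ligases that remove channels from the membrane, and of Fgf12 (1.6 ± 0.16, limma, adjusted p = 5.2e-07), an intracellular FGF that binds the tail of the alpha subunit. The first 2 were lower and Fgf12 was higher.

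In the P5-OC the question was whether channel genes differ with the transgene. None of the 8 was called by limma, where 0.610% of all probesets were called, and in none were the Tg/Tg and WT arrays apart, against 1.67% of all probesets. At an unadjusted p under 0.05 there were 5, with Scn7a higher and Scn1a, Scn2b, Scn8a and Scn9a lower in Tg/Tg, where 16.4% of all probesets passed. The change was below 0 in 7 of 8 genes, with a median of -0.29 against -0.01 over all probesets.

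Scn2b had 6.55, 6.57, 6.54, 6.49 and 6.49 in P5 Tg/Tg, against 6.84, 7.05, 6.57, 6.89 and 6.72 in P5 WT. The Tg/Tg arrays were close together and reached the lowest WT array, and the change was -0.29 ± 0.08 (95% interval -0.47 to -0.11, limma, adjusted p = 0.16). Scn1a had 6.49, 6.04, 6.26, 5.62 and 5.49 in P5 Tg/Tg, against 6.40, 6.55, 5.92, 6.55 and 6.90 in P5 WT. The ranges overlapped over much of their width, and the change was -0.49 ± 0.19 (95% interval -0.89 to -0.09, limma, adjusted p = 0.24).

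Scn8a had 6.25, 6.13, 5.99, 5.84 and 5.94 in P5 Tg/Tg and the WT values given above, with a change of -0.36 ± 0.14 (95% interval -0.65 to -0.07, limma, adjusted p = 0.23). Scn9a had 5.72, 5.45, 5.88, 5.82 and 5.53 in P5 Tg/Tg, with a change of -0.37 ± 0.17 (95% interval -0.74 to -0.0053, limma, adjusted p = 0.3). For both genes WT replicates 4 and 5 stood above all other P5 arrays, and of the other 3 WT replicates only replicate 2 for Scn8a lay above the Tg/Tg range. Scn3b had 6.27, 5.85, 6.47, 6.35 and 6.03 in P5 Tg/Tg and showed the same 2 WT arrays on top (-0.30 ± 0.15, limma, adjusted p = 0.32). With the Y-linked mean as a covariate the changes were smaller, at -0.27 for Scn1a, -0.18 for Scn8a, -0.22 for Scn9a and -0.17 for Scn3b, and with array weights they were larger for Scn9a (-0.58) and Scn3b (-0.49), with none called. Without WT replicate 5 the Scn9a change was -0.25, and without WT replicate 4 that of Scn3b was -0.20.

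Scn7a was the only gene whose mean was higher in P5 Tg/Tg. It had 6.57, 6.40, 6.15, 5.68 and 5.81 in P5 Tg/Tg, against 5.52, 6.03, 5.84, 5.62 and 5.70 in P5 WT. Replicates 1, 2 and 3 of Tg/Tg lay above all WT arrays and replicates 4 and 5 within them, and the change was 0.38 ± 0.16 (95% interval 0.05 to 0.71, limma, adjusted p = 0.26). With the Y-linked mean as a covariate it was 0.62 (adjusted p = 0.35). Scn3a (-0.04 ± 0.18) and Scn4b (-0.02 ± 0.07) had changes smaller than their standard errors, with 95% intervals of -0.43 to 0.35 and -0.17 to 0.12.

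For 4 of the 8 genes, Scn1a, Scn8a, Scn9a and Scn3b, arrays with high signal at P5 were also those with high neuronal markers. The mean log2 signal of 16 neuronal markers was 8.42, 8.14, 8.35, 8.11 and 7.90 in P5 Tg/Tg, against 8.37, 8.26, 8.22, 8.65 and 8.72 in P5 WT, so that WT replicates 4 and 5 were highest here too. None of these markers was called at P5, their median change was -0.33, and their summed signal was 12.74 to 13.21 in P5 Tg/Tg and 12.97 to 13.51 in P5 WT. Pearson's r between this mean and the gene over the 10 P5 arrays was 0.90 for Scn1a, 0.85 for Scn9a, 0.83 for Scn8a and 0.80 for Scn3b, and it was 0.47 for Scn2b, 0.18 for Scn3a, -0.12 for Scn4b and -0.15 for Scn7a. After the mean of each group was taken off, r over all 16 arrays was 0.84 for Scn1a, 0.75 for both Scn9a and Scn8a and 0.71 for Scn3b. Other lists moved with these genes too. WT replicates 4 and 5 were also highest for the means of 8 hair cell markers (8.52 and 8.56) and 22 partner genes (8.56 and 8.62). For Scn8a, r with the group means taken off was 0.73 with hair cell markers and 0.72 with partner genes, close to the 0.75 with neuronal markers. By the same measure Scn9a had 0.71 with partner genes, 0.65 with hair cell and 0.59 with supporting cell markers, beside its 0.75. Scn3b had 0.68 with supporting cell markers, beside its 0.71 with neuronal markers. For Scn2b, r over the P5 arrays was higher with 12 Schwann cell markers (0.78) than with neuronal markers. With the group means taken off it was only 0.24 with Schwann cell markers and 0.07 with neuronal markers. The 0.78 thus holds mostly the difference between the genotypes. These are descriptions, each pair of points shares an array and its RNA, and the part of any of these cells in the channel values was not tested.

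**Figure D3:**
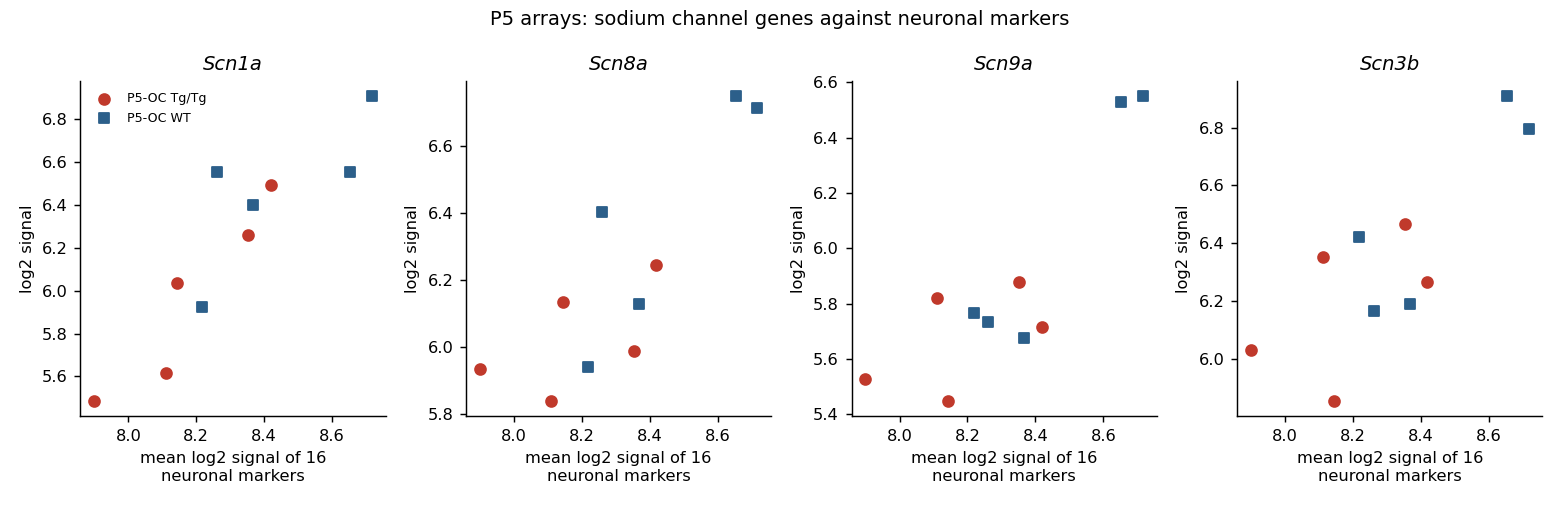
Log2 signal of Scn1a, Scn8a, Scn9a and Scn3b (y axis, 1 panel each) against the mean log2 signal of 16 neuronal markers (x axis) on the P5 arrays, with circles for P5-OC Tg/Tg and squares for P5-OC WT (n = 5 each). WT replicates 4 and 5, at 8.65 and 8.72 on the x axis, are at or near the top of each panel.

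Of 12 Schwann cell markers 8 were lower in P5 Tg/Tg and none higher, with summed signals of 13.11 to 13.35 in P5 Tg/Tg and 14.04 to 14.21 in P5 WT. All 8 (Mag, Cldn19, Egr2, Gjc3, Mbp, Pmp22, Ncmap and Drp2) belong to myelin and its formation. The 3 with the smallest adjusted p were the myelin genes Mag (-2.23 ± 0.12, limma, adjusted p = 4.7e-08) and Cldn19 (-2.03 ± 0.13, limma, adjusted p = 2.8e-07) and the myelin transcription factor Egr2 (-1.59 ± 0.13, limma, adjusted p = 4.3e-06). The other 4, which mark the Schwann cell lineage, were not called, with changes of -0.14 for Sox10, -0.25 for Erbb3, -0.26 for Foxd3 and 0.09 for Cdh19. Of the 22 partner genes 1 was called, Gldn, the gliomedin with which Schwann cells gather sodium channels at nodes (-1.81 ± 0.22, limma, adjusted p = 0.00032). The part of myelin gene RNA and of the Y-linked level, which was high on 1 Tg/Tg and 4 WT arrays, in the channel values was not tested beyond the covariate fit.

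In the P18 cochlea none of the 8 genes was called by limma either, where 0.443% of all probesets were called. At an unadjusted p under 0.05 there was 1, Scn7a, where 8.77% of all probesets passed. The Tg/Tg and WT arrays were apart in 4 of 8 genes, Scn7a and Scn1a higher and Scn8a and Scn4b lower in Tg/Tg, where 27.6% of all probesets were apart (14.0% higher and 13.6% lower). The median change was 0.05, against -0.02 over all probesets.

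Scn7a had 7.82, 7.68 and 7.85 in P18 Tg/Tg, against 7.10, 6.84 and 6.66 in P18 WT. The Tg/Tg arrays lay close together and all above WT, and the change was 0.92 ± 0.20 (1.89-fold higher, 95% interval 0.49 to 1.35, limma, adjusted p = 0.069). It passed an adjusted p of 0.05 in a fit of the P18 arrays alone (0.039), over probesets of 1 named gene only (0.022), with array weights (0.0018), with the Y-linked mean as a covariate (0.042), and without P5 Tg/Tg replicate 1 or replicate 4 (0.037 each). It did not pass with the replicate block (0.11), without the dimmest probesets (0.052), after repeated quantile normalization (0.19) or with another variance prior (0.061). Scn7a has 1 probeset of a single gene, so the mean of a gene's probesets only repeats the 0.069 and is no separate check. Leaving out each array in turn gave changes of 0.82 to 1.03 and adjusted p of 0.037 to 0.27. The change at P18 minus that at P5 was 0.54 ± 0.25 and was not called (limma, adjusted p = 0.35).

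Of 18 skeletal muscle markers 15 were higher in P18 Tg/Tg and none lower, and their summed signal (log2) was 12.56 to 12.62 in P18 Tg/Tg and 10.23 to 10.25 in P18 WT. The smallest adjusted p were those of the fast myosin Myh1 (3.44 ± 0.09, limma, adjusted p = 2.2e-12), the filament protein gene Neb (1.78 ± 0.08, limma, adjusted p = 2.5e-09) and the myosin light chain Myl1 (3.39 ± 0.15, limma, adjusted p = 2.7e-09). The 2 of 12 Schwann cell markers called, both higher, were Cdh19 (0.73 ± 0.10, limma, adjusted p = 0.002) and Gjc3 (0.63 ± 0.10, limma, adjusted p = 0.0059), with a summed signal of 13.71 to 13.87 in P18 Tg/Tg and 13.50 to 13.58 in P18 WT. Both summed levels were higher on the same arrays as Scn7a, but they were not alone in this. Summed hair cell markers were 11.63 to 11.64 in P18 Tg/Tg and 11.41 to 11.48 in P18 WT. Summed supporting cell markers were 13.57 to 13.64 in P18 Tg/Tg and 13.49 to 13.51 in P18 WT. With the group means taken off, r of Scn7a over 16 arrays was -0.45 with skeletal muscle markers and 0.65 with Schwann cell markers. It was 0.15 with hair cell and -0.46 with supporting cell markers, and farthest from 0 with astrocyte markers (-0.76). With cerebellar and hindbrain markers it was -0.65. Of the 16 arrays 10 are of P5. With only the mean of each age taken off, the signs turned, to 0.69 with skeletal muscle and -0.16 with Schwann cell markers. It was then -0.75 with cerebellar and hindbrain markers. Differences between the genotypes remain in these last values. The part of any of these cells in the Scn7a change was not tested. Scn4a, the channel gene that would mark skeletal muscle, was not analysed here.

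**Figure D4:**
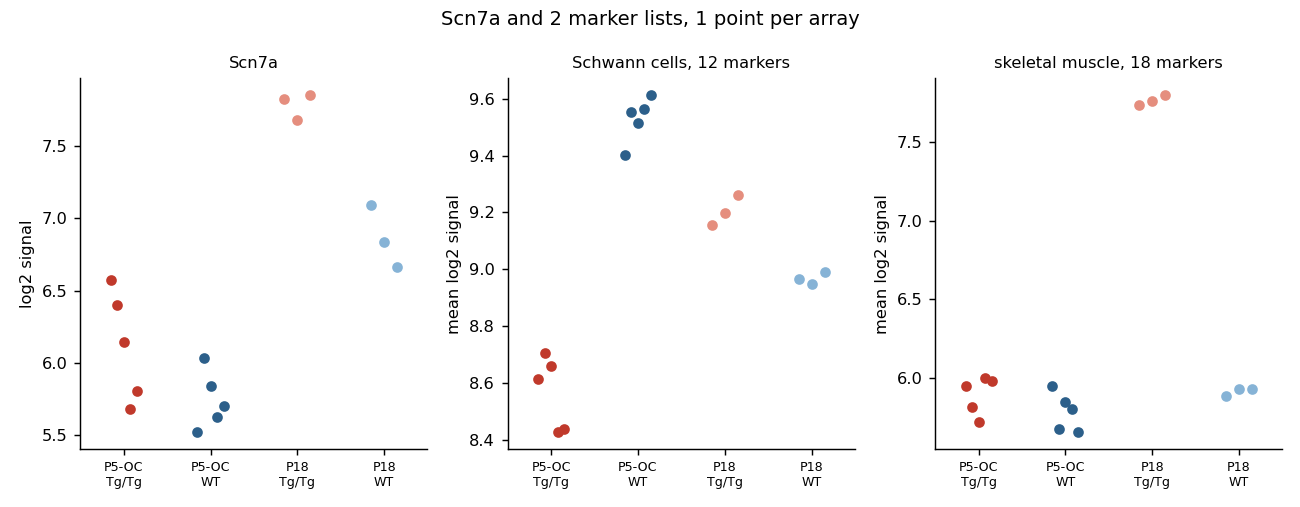
Log2 signal of Scn7a (left) and mean log2 signal of 12 Schwann cell markers (middle) and 18 skeletal muscle markers (right) on each of 16 arrays, with the 4 groups along the x axis. P18 Tg/Tg arrays lie above P18 WT arrays in all 3 panels, and at P5 the Schwann cell markers run the other way, with Tg/Tg below WT.

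Scn8a had 7.75, 7.81 and 7.69 in P18 Tg/Tg, against 8.01, 8.0 and 8.07 in P18 WT. All Tg/Tg arrays were lower, and the change of -0.27 ± 0.17 was not called (95% interval -0.65 to 0.10, limma, adjusted p = 0.74). Scn1a had 7.30, 7.42 and 7.19 in P18 Tg/Tg, against 7.11, 6.98 and 7.09 in P18 WT. Here all Tg/Tg arrays were higher, and the change of 0.24 ± 0.24 was not called (95% interval -0.27 to 0.76, limma, adjusted p = 0.88). Scn4b, with 8.10 to 8.17 in P18 Tg/Tg and 8.17 to 8.26 in P18 WT, had arrays narrowly apart and a change of -0.07 ± 0.09.

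The other 4 genes overlapped between the genotypes at P18. Scn3a had 4.63 to 4.72 in P18 Tg/Tg and 4.42 to 4.78 in P18 WT, Scn9a had 5.11 to 5.38 in P18 Tg/Tg and 5.07 to 5.45 in P18 WT, and Scn3b had 5.45 to 5.64 in P18 Tg/Tg and 5.39 to 5.61 in P18 WT. Scn2b had 6.26 to 6.50 in P18 Tg/Tg and 6.43 to 6.62 in P18 WT. Their changes lay between -0.08 and 0.08, and the widest 95% interval, that of Scn3a, was -0.43 to 0.58. Of 16 neuronal markers none was called at P18 and their summed signal was 13.76 to 13.77 in P18 Tg/Tg and 13.80 to 13.87 in P18 WT. Of 12 markers of cerebellar and hindbrain neurons 7 were lower in P18 Tg/Tg and none higher, at a summed 11.47 to 11.52 in P18 Tg/Tg and 11.61 to 11.67 in P18 WT, and their part in the channel values was not tested.

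The genotype change at P18 minus that at P5 was called by limma for none of the 8 genes, where 0.596% of all probesets were called, and 2 genes, Scn1a (0.73 ± 0.31, adjusted p = 0.3) and Scn7a, had an unadjusted p under 0.05, where 14.3% of all probesets did. Of the partner genes only Gldn was called, with 2.04 ± 0.35 (limma, adjusted p = 0.011).

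Within the gene group, the signals of some genes followed each other from array to array. With the mean of each age taken off, the highest Pearson's r between members over 16 arrays was that of Scn9a and Scn3b (0.87), then Scn1a and Scn8a (0.71), Scn8a and Scn9a (0.66) and Scn8a and Scn2b (0.64). Scn7a had its highest r with Scn3a (0.33) and was below 0 with Scn9a (-0.247), Scn3b (-0.255), Scn8a (-0.34), Scn2b (-0.34) and Scn4b (-0.37). By the same measure over all 19937 genes, Scn8a was most like Sv2a, a synaptic vesicle protein gene (0.95), Dscam (0.93) and Cntnap1 (0.93), which encodes the paranodal protein Caspr. Scn1a was most like the calcium channel subunit gene Cacnb4 (0.97), Cntnap5a (0.96) and Elavl4 (0.95), and Scn9a like the neuronal RNA-binding protein gene Elavl3 (0.94), Cntn5 (0.91) and Crmp1 (0.90).

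Scn3b was most like Igsf9b (0.92), Elavl3 (0.91) and P2rx3 (0.91), so that Elavl3 stood near both Scn9a and Scn3b. Scn2b was most like Tmcc3 (0.90), Tgfbr2 (0.88) and Mfn2 (0.87), Scn3a like Smarca2 (0.93), Galnt3 (0.92) and Copb2 (0.91), and Scn7a like the cadherin gene Cdh10 (0.87), Ocrl (0.84) and Dnm1l (0.84). Scn4b had the weakest likeness, with Fam227b (0.85), Nipal4 (0.82) and Ubtfl1 (0.77). These values describe 16 arrays of both genotypes. Only the mean of each age was taken off, so differences between the genotypes remain in them. The named genes are also the highest of 19937, and such a search by itself gives high values.

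Of the further sodium channel genes, Scn2a, Scn10a, Scn11a and Nalcn had probesets of a single gene, and Nalcn, the sodium leak channel, was the only one of the 4 whose brightest probeset was called in any comparison. It was lower at P18 in WT, with 7.92 on all 3 arrays against 9.18 to 9.41 in P5 WT (-1.35 ± 0.07, limma, adjusted p = 1.6e-10). Scn2a, the alpha subunit of unmyelinated and immature axons, was read by 14 probesets that did not agree on age. Of these, 3 were higher and 4 lower at P18 in WT, with changes of -0.82 to 0.61. For genotype most Scn2a probesets pointed one way, with 14 of 14 below 0 at P18 (median -0.27) and 13 of 14 at P5 (median -0.20). The exception at P5 was the brightest probeset, which stands for the gene here, with a change of 0.09. None of the 14 was called (smallest adjusted p = 0.3 at P18 and 0.15 at P5, limma), and they read the RNA of 1 gene on the same arrays.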

How the data were processed

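RNA was measured on 16 MoGene 1.0 arrays. The deposited values are log2 signals, normalized by the authors, of 34760 probesets, and lie between 2.09 and 13.72. How background was corrected and signals normalized is not given in the sources used here. The submitters' processing notes name limma without a version. Sample names gave the groups, since other label fields (tissue, genotype, age) conflict with them. A probeset was named from the platform table, in which 21640 have a single gene and 1321 several.

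All arrays entered a linear model with a mean per group (limma 3.58.1, R 4.3.3), with 12 residual degrees of freedom and a prior of 3.23. Tests were two-sided, with Benjamini-Hochberg adjustment over the 34760 probesets of each comparison. Calls needed an adjusted p under 0.05, with neither a fold limit nor a filter on low signals. The channel genes were named whatever their values, as were the 3 genes most correlated with each and up to 3 members of other lists with the smallest adjusted p. The members and all lists were chosen with earlier results of these data known. The fit was tested on simulated data. The number of arrays limits the precision, and detection calls were not used here. The results were recomputed with the replicate number as a block, with each age fitted alone, without dim probesets, over single-gene probesets, after repeated quantile normalization, with another variance prior, with array weights, with the mean of a gene's probesets, with the Y-linked mean as a covariate, under fold limits and without each array. Plots used matplotlib 3.10.9 (Python 3.11.15).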

Additional observations from a re-analysis of the deposited data

How the results depend on the processing

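No channel gene was called at P5 or for the difference between the ages under any alternative run. At P18 the count was 1 (Scn7a) with separate fits per age, with probesets of 1 gene only, with array weights and with the Y-linked covariate, and 0 to 1 with each array left out in turn. For P18 against P5 in WT a fold limit of 2 left 4 genes (Scn7a, Scn8a, Scn3b and Scn4b), a limit of 1.5 left 7, repeated quantile normalization left 6, and leaving out each array left 6 to 8. The share of all probesets called was 50.0% in the main fit and was not counted under these settings. These counts therefore cannot be set against the whole array. Of 776 changes of single genes under an alternative, 742 kept their direction and their side of the threshold, 9 lost a call, 6 gained one and 19 turned sign, none of the last called under any alternative. In many of the 776 the direction could not turn. Separate fits per age, the probeset filters and another variance prior keep the group means. Leaving out an array of 1 age keeps the genotype change of the other age. The 742 is thus no count of independent checks. With array weights the turned values were 0.0855 for Scn3a at P5, -0.0074 for Scn9a at P18 and -0.0238 for Scn3a in the difference. With the Y-linked covariate they were 0.0037 for Scn3a at P5, and -0.12 for Scn8a and 0.0346 for Scn4b in the difference. With each array left out, the changes ranged from -0.19 to 0.0937 for Scn3a at P5, -0.0587 to 0.0117 for Scn4b at P5, -0.0053 to 0.17 for Scn3a at P18, -0.0342 to 0.16 for Scn9a at P18, and, in the difference, -0.0169 to 0.26 for Scn3a and -0.0052 to 0.20 for Scn8a. The cause of these turns was not tested.

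The labels do not say that replicate numbers pair the samples, and the data did not settle it: deviations of same-numbered arrays from the group means correlated at 0.29, 0.36, -0.11, 0.20 and -0.22 at P5 and at 0.0004 to 0.07 at P18. The numbers may still carry shared structure at P5: summed astrocyte markers were 9.87 to 9.89 in replicates 1 and 2 and 10.12 to 10.34 in replicates 3 to 5 of Tg/Tg, against 9.94 in replicates 1 and 2 and 10.20 to 10.31 in replicates 3 to 5 of WT. Scn3a split the other way, with 5.60 and 5.79 in replicates 1 and 2 and 4.98 to 5.23 in replicates 3 to 5 of Tg/Tg. In WT it was 5.56 and 5.92 in replicates 1 and 2 and 4.81 to 5.42 in replicates 3 to 5. Over the 10 P5 arrays its Pearson's r was -0.91 with the mean of 4 astrocyte markers and -0.87 with that of 12 cerebellar and hindbrain markers. The cause of this split was not tested. With the replicate block, the count called was 0 at P5, at P18 and for the difference, so no call changed, and P18 minus P5 could not be fitted with it. Signals near or below the lower quartile of an array limit what their changes can show, such as those of Scn3a and the second Scn9a probeset at P18 and of Scn4b at P5.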
